A study of Mus musculus with 8 samples.

Results

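Amino acid transporters of the solute carrier families were examined in mouse skeletal muscle after delivery of spermine oxidase. The members were all genes on the array whose symbol begins with Slc1a, Slc3a, Slc6a, Slc7a, Slc36a, Slc38a or Slc43a, leaving out Slc7a5. There were 56 such genes among 16593 genes measured, 18 of them in the Slc6 family, 15 in Slc7, 10 in Slc38, 7 in Slc1, 3 in Slc36, 2 in Slc43 and 1 in Slc3. One of the 56, Slc7a6os, carries the name of the neighbouring gene on the opposite strand of Slc7a6 and is not itself a transporter. RNA came from the tibialis anterior, a fast hindlimb muscle, of male C57BL/6 mice aged 8 weeks. In the spermine oxidase group 4 muscles had received a plasmid for spermine oxidase, and in the control group 4 muscles had received a control plasmid. Both groups were harvested 7 days later. The promoter of the plasmids, the share of fibres that took them up and whether the muscles of a mouse were divided between the groups are not stated in the labels. Each muscle was read on 1 Illumina bead array. Values are log2 signals as the authors deposited them, a difference is always spermine oxidase minus control, and ± after a difference gives its limma standard error.

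Amino acids cross the membranes of a cell through carrier proteins. Members of the Slc38 family and several Slc1 and Slc6 members couple uptake to the sodium gradient, whereas the light chains of the Slc7 family exchange one amino acid for another and reach the surface bound to a heavy chain of the Slc3 family. The cationic carriers of the Slc7 family work without such a partner. Some Slc36 and Slc38 proteins work in lysosomes, where certain of them also report amino acid supply to the growth kinase complex mTORC1. In muscle the Slc6 family is also known for carrying taurine and creatine, which fibres hold at high levels. Spermine oxidase itself acts on the polyamine spermine and releases hydrogen peroxide, an aldehyde and spermidine.

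The targeted gene was checked first. Smox was higher in every spermine oxidase muscle than in any control muscle on each of its 5 probes, by 2.22-fold to 10.8-fold (exact two-sided permutation p = 0.0286, the smallest that 4 against 4 muscles can give). When limma was run over every probe, these 5 probes had adjusted p-values of 0.131 to 0.264. The delivered gene itself thus did not pass an adjusted p of 0.05, and failing that threshold does not show that a gene was unchanged. Fibre genes marked the tissue, since 7 of 8 measured fibre markers lay among the brightest 40% of probes and only Myh7, the slow myosin heavy chain, lay at the floor (8.21). The arrays correlated at 0.975 to 0.997 across probes, and the least alike were spermine oxidase replicate 1 and control replicate 4. Across all genes, 0 of 16593 passed an adjusted p of 0.05 with limma, while 1833 had an unadjusted p under 0.05. The labels do not say that the muscles came from separate mice, so the p-values speak only to the spread among these 8 samples, part of which may be technical. In whole muscle RNA, fewer cells of a type and less RNA per cell cannot be told apart.

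None of the 56 transporter genes changed at an adjusted p of 0.05 with limma (background 0%), and the smallest adjusted p was 0.273. The largest differences among the members were a 1.12-fold higher signal for Slc1a1 and a 1.12-fold lower signal for Slc38a2. The members' differences had a median of 0.0023, beside -0.0006 for all genes, and 34 of 56 were above 0 (60.7%, where all genes gave 49.2%). At an unadjusted p under 0.05 there were 3 members higher (5.36%, background 6.33%) and 3 lower (5.36%, background 4.72%). The groups did not overlap for 1 member that was higher, Slc7a9, and 1 that was lower, Slc7a4 (1.79% each), where the background was 3.66% higher and 2.51% lower. Both pairs of shares are near or below those of the whole array. The plot of members among all genes shows them within the spread of genes of like signal.

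**Figure D1:**
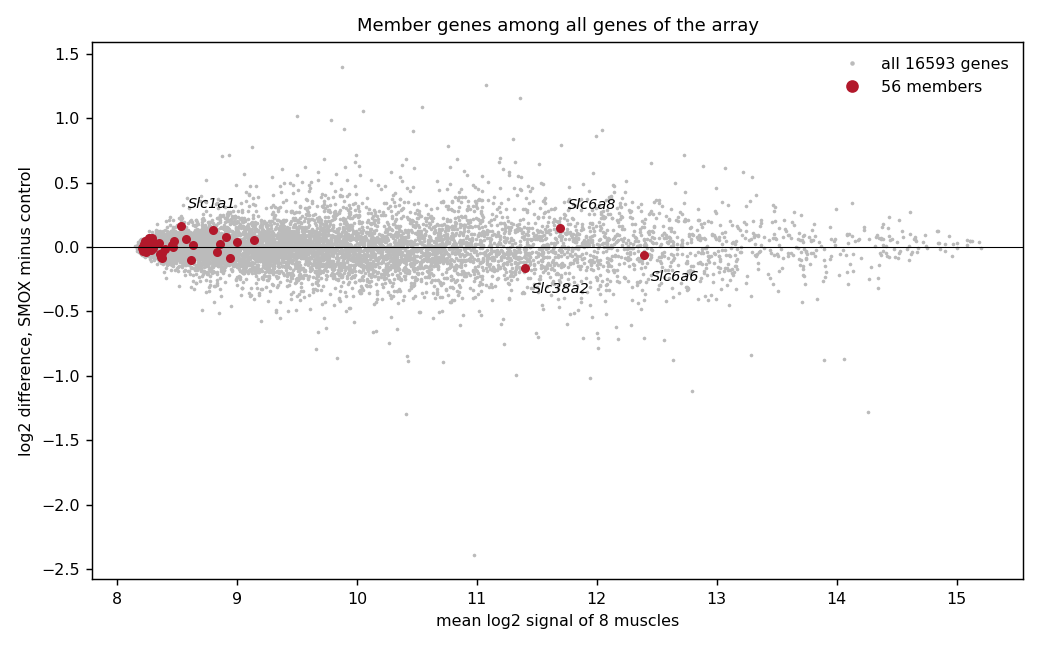
Each point is a gene, with its mean log2 signal over the 8 muscles on the horizontal axis and its log2 difference, spermine oxidase (SMOX) minus control, on the vertical axis. The 56 members (red) lie between -0.16 and 0.17, among all 16593 genes (grey), which run from -2.39 to 1.40, and only Slc6a6, Slc6a8 and Slc38a2 lie above a mean of 11.

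Most of the members lay at or near the floor of the array, which sets what these data can show. The deposited values have no detection calls, and the lowest single value was 8.10. The 60th percentile of probe means was 8.48, and 14 members had their brightest probe above it (25.0%, where all genes gave 44.7%). The members next to that line were Slc7a6 at a mean of 8.47 below it and Slc1a1 at 8.53 above it. The 5 members known as transporters of neurons and their targets, Slc6a2 (noradrenaline), Slc6a3 (dopamine), Slc6a4 (serotonin), Slc6a5 (glycine) and Slc6a11 (GABA), had means of 8.22 to 8.27. The 42 members below the line had means of 8.21 to 8.47 and differences of -0.08 to 0.07. Among them were several carriers well known in growing cells, namely Slc3a2, the heavy chain of the Slc7 exchangers, at 8.36 in spermine oxidase and 8.33 in control muscles, and the glutamine carrier Slc1a5 at 8.22 and 8.23. The cystine exchanger Slc7a11 read 8.29 in spermine oxidase and 8.24 in control muscles. A difference in mRNA of such a gene is compressed on this scale, and the probes of different genes need not bind equally well, so a higher signal does not mean more mRNA.

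The carriers with the brightest signals were those for taurine, creatine and small neutral amino acids. Slc6a6, the taurine transporter, had log2 signals of 12.28, 12.52, 12.28 and 12.36 in spermine oxidase muscles, against 12.47, 12.28, 12.36 and 12.57 in control muscles. The groups overlapped fully, and the difference of -0.06 ± 0.08 (limma adjusted p = 0.821) was smaller than the SD within either group (0.11 and 0.13, n = 4 each). Without control replicate 4 it was -0.01. Slc6a8, the creatine transporter, read 11.97, 11.57, 11.71 and 11.84 in spermine oxidase muscles, against 11.80, 11.55, 11.51 and 11.62 in control muscles. Its highest muscles were replicate 1 in both groups, and each spermine oxidase muscle was above the control muscle of the same number. The difference was 0.15 ± 0.10, with a 95% interval of -0.07 to 0.37 and a limma adjusted p = 0.628, and it was 0.08 without spermine oxidase replicate 1. Slc38a2 encodes a sodium-coupled carrier of alanine, glutamine and other small neutral amino acids that many cells induce when amino acids are scarce. Its brightest probe read 11.21, 11.47, 11.15 and 11.45 in spermine oxidase muscles, against 11.41, 11.54, 11.37 and 11.62 in control muscles. The groups overlapped although each spermine oxidase muscle was below the control muscle of its number, and the difference was -0.16 ± 0.09 (95% interval -0.37 to 0.05, limma adjusted p = 0.573). A second Slc38a2 probe, at 10.19 in both groups, differed by 0.0064 ± 0.09, so the probes of this gene gave no common direction.

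**Figure D2:**
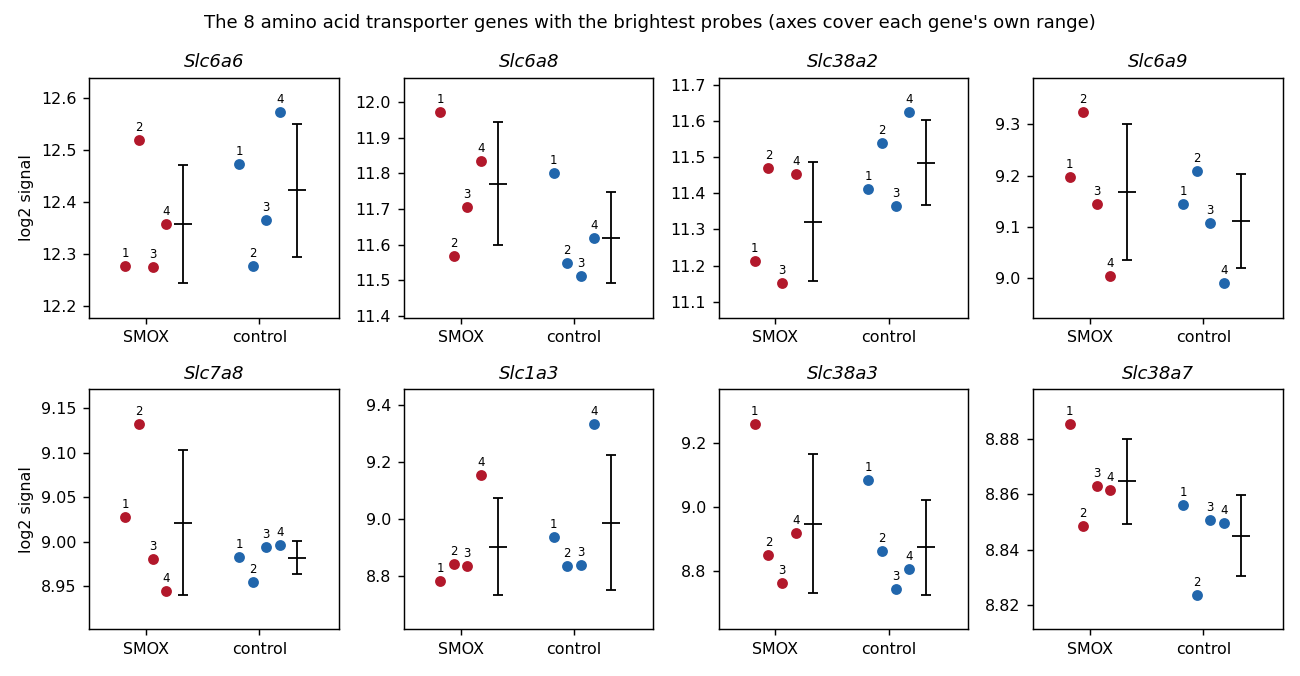
Log2 signal of the 8 members with the highest mean signal, 1 point per muscle numbered by replicate, spermine oxidase (SMOX) in red and control in blue, with the group mean and SD in black (n = 4). The groups overlap for each of the 8. Slc6a8, Slc38a3 and Slc38a7 are highest in replicate 1 of both groups, Slc6a9 in replicate 2 and Slc1a3 in replicate 4. Each vertical axis covers its own gene's range.

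Among the next brightest members, Slc6a9, Slc1a3 and Slc38a3 were each highest in the same replicate number of both groups. None of these members passed the adjusted threshold with limma, which does not show that they were unchanged. The 95% interval of the difference was -0.11 to 0.22 for Slc6a9, -0.38 to 0.22 for Slc1a3 and -0.20 to 0.34 for Slc38a3. Slc6a9, the glycine transporter GlyT1, read 9.20, 9.32, 9.15 and 9.00 in spermine oxidase muscles, against 9.14, 9.21, 9.11 and 8.99 in control muscles. The order of the 4 muscles was the same in both groups, and the difference of 0.06 ± 0.07 was 0.0034 without spermine oxidase replicate 2, 0.01 without control replicate 4 and 0.11 without spermine oxidase replicate 4. Slc1a3, a glutamate and aspartate transporter best known in glia, read 8.78, 8.84, 8.83 and 9.16 in spermine oxidase muscles, against 8.94, 8.84, 8.84 and 9.34 in control muscles. Replicate 4 stood above the other muscles in both groups, and the difference of -0.08 ± 0.13 became 0.03 without control replicate 4. Slc38a3, a glutamine carrier, read 9.26, 8.85, 8.76 and 8.92 in spermine oxidase muscles, against 9.08, 8.86, 8.75 and 8.81 in control muscles. Replicate 1 was highest in both groups, and the difference of 0.07 ± 0.12 became -0.03 without spermine oxidase replicate 1. Slc7a8, the light chain of a neutral amino acid exchanger, read 9.03, 9.13, 8.98 and 8.94 in spermine oxidase muscles and 8.98, 8.96, 8.99 and 9.00 in control muscles. Control muscles lay within the range of the spermine oxidase muscles, and the difference of 0.04 ± 0.04 became 0.0024 without spermine oxidase replicate 2. Slc38a7, a lysosomal glutamine exporter, was the most even of these, at 8.89, 8.85, 8.86 and 8.86 in spermine oxidase muscles and 8.86, 8.82, 8.85 and 8.85 in control muscles, a difference of 0.02 ± 0.02. Its lysosomal relative Slc38a9, an arginine sensor for mTORC1, averaged 8.82 ± 0.02 in spermine oxidase muscles and 8.85 ± 0.07 in control muscles (SD, n = 4 each).

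Of the 6 members with an unadjusted p under 0.05, 5 lay below the 60th percentile line. Slc1a1, a neuronal and epithelial glutamate and cysteine transporter, was the exception. It read 8.72, 8.48, 8.66 and 8.59 in spermine oxidase muscles, against 8.49, 8.48, 8.48 and 8.34 in control muscles. Spermine oxidase replicate 2 lay within the control range, and the difference was 0.17 ± 0.06 (95% interval 0.04 to 0.30, unadjusted p = 0.0185, limma adjusted p = 0.342). Its second probe, at the floor, had the same sign (0.06 ± 0.02). With the floor subtracted on the linear scale the Slc1a1 difference was 0.55 (limma adjusted p = 0.282), a size that depends on the floor and the offset of 16 chosen for that scale. Slc1a7, a glutamate transporter of the retina, read 8.37, 8.35, 8.31 and 8.29 in spermine oxidase muscles, against 8.39, 8.38, 8.37 and 8.41 in control muscles (difference -0.06 ± 0.02, limma adjusted p = 0.413). Only spermine oxidase replicate 1 reached the control range.

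Among the cationic carriers, which take up arginine, lysine and ornithine, the members differed in sign. Slc7a1, the widespread arginine carrier CAT1, read 8.35, 8.34, 8.35 and 8.28 in spermine oxidase muscles, against 8.28, 8.22, 8.23 and 8.29 in control muscles. The difference was 0.07 ± 0.03, and spermine oxidase replicate 4 lay within the control range. A second Slc7a1 probe, at the floor, differed by 0.0124 ± 0.02, and the mean of both Slc7a1 probes by 0.043. Slc7a2, the carrier CAT2, read 8.95, 8.83, 8.84 and 8.84 in spermine oxidase muscles, against 8.86, 8.74, 8.82 and 8.51 in control muscles. The groups overlapped, and the difference of 0.13 ± 0.08 became 0.06 without control replicate 4, the lowest muscle. On a second Slc7a2 probe, near the floor, the spermine oxidase muscles (8.36, 8.35, 8.38 and 8.37) were all above the control muscles (8.32, 8.32, 8.31 and 8.28). That difference was 0.06 ± 0.02, with an adjusted p = 0.325 when limma was run over every probe, and the remaining probe differed by 0.0003 ± 0.03. Slc7a3, the carrier CAT3 that is best known in brain, read 8.36, 8.33, 8.34 and 8.30 in spermine oxidase muscles, against 8.43, 8.41, 8.36 and 8.46 in control muscles (difference -0.08 ± 0.03). The groups nearly parted, with spermine oxidase replicate 1 and control replicate 3 meeting at 8.36. A second Slc7a3 probe, at the floor, differed by -0.0078 ± 0.02, and the mean of both probes by -0.045. Slc7a4, a related protein with no settled transport activity, read 8.33, 8.31, 8.32 and 8.37 in spermine oxidase muscles, against 8.41, 8.38, 8.40 and 8.44 in control muscles (difference -0.07 ± 0.02, limma adjusted p = 0.292). All 4 spermine oxidase muscles were below all 4 control muscles, by a gap within the range of floor signals.

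Of the light chains of the Slc7 exchangers, Slc7a9, Slc7a7 and Slc7a6 were among the 14 members with the smallest p, and none passed the adjusted threshold. Slc7a9, which pairs with a heavy chain in kidney and gut to take up cystine and cationic amino acids, read 8.29, 8.30, 8.30 and 8.33 in spermine oxidase muscles, against 8.22, 8.27, 8.25 and 8.21 in control muscles. The groups did not overlap on this probe (difference 0.07 ± 0.02, limma adjusted p = 0.273), but its other probes, also at the floor, differed by -0.03 ± 0.02 and 0.0019 ± 0.02. Slc7a7, the exchanger y+LAT1 of macrophages and epithelia, read 8.48, 8.55, 8.70 and 8.52 in spermine oxidase muscles, against 8.64, 8.59, 8.67 and 8.75 in control muscles on its brightest probe. The groups overlapped through spermine oxidase replicate 3, and the difference was -0.10 ± 0.05 (limma adjusted p = 0.548). On its second probe, at a mean of 8.56, the 4 spermine oxidase muscles (8.41, 8.49, 8.59 and 8.46) were all below the 4 control muscles (8.60, 8.65, 8.60 and 8.70). That difference was -0.15 ± 0.04, with an adjusted p = 0.275 when limma was run over every probe. The 6 macrophage markers measured averaged 10.41 to 10.76 in spermine oxidase muscles and 10.64 to 11.00 in control muscles, with 3 higher and 3 lower, and their part in the Slc7a7 result was not tested. Of these markers Ms4a7 (-0.71 ± 0.19) and Lyz2 (-0.38 ± 0.26) had the most negative differences, Cd163 had the most positive (0.22 ± 0.04), and only Itgam lay at the floor. None passed the adjusted threshold in this fit, and Ms4a7 did with the replicate block (adjusted p = 0.0442). Slc7a6, the related exchanger y+LAT2, read 8.51, 8.51, 8.49 and 8.46 in spermine oxidase muscles, against 8.40, 8.47, 8.51 and 8.41 in control muscles, a difference of 0.05 ± 0.03 with overlap.

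**Figure D3:**
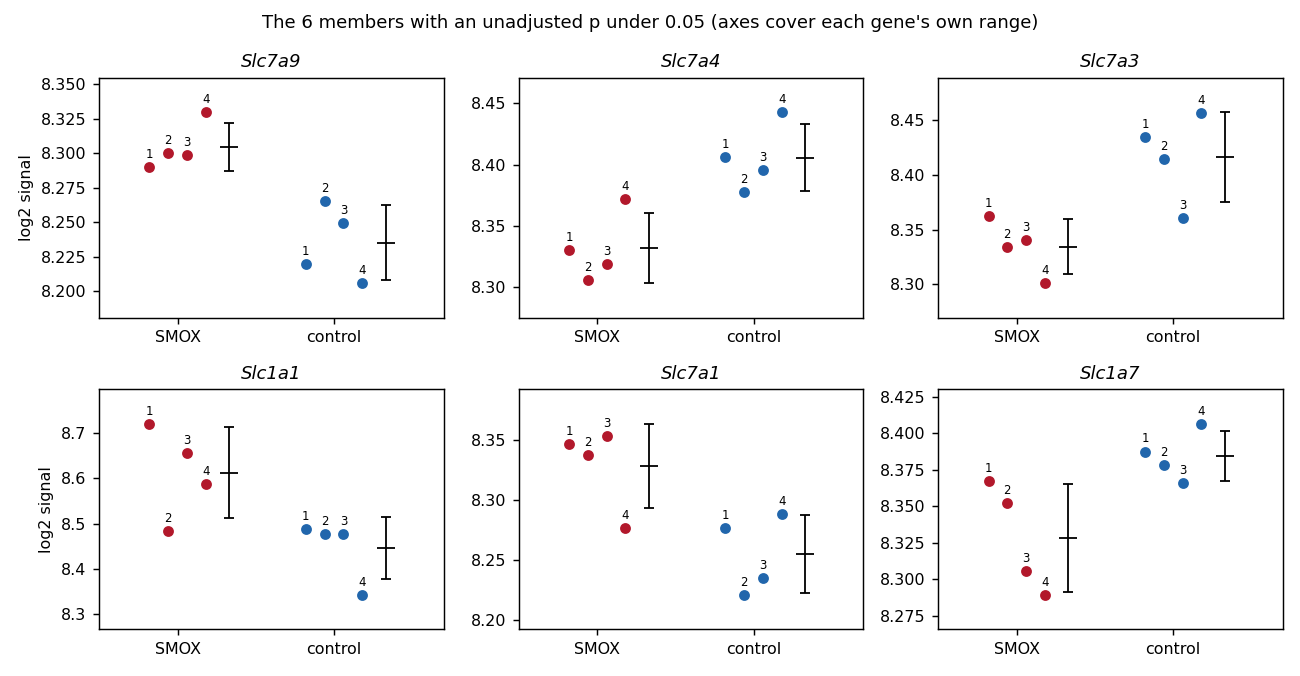
Log2 signal of the 6 members with an unadjusted limma p under 0.05, 1 point per muscle numbered by replicate, spermine oxidase (SMOX) in red and control in blue, with the group mean and SD in black (n = 4). All values lie between 8.21 and 8.72, close to the floor of the array, and each vertical axis covers its own gene's range.

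The other 4 of the 14 members with the smallest p overlapped between the groups. Slc38a4, a carrier of neutral and cationic amino acids best known in liver and placenta, read 8.65, 8.54, 8.58 and 8.67 in spermine oxidase muscles, against 8.50, 8.55, 8.56 and 8.58 in control muscles (difference 0.06 ± 0.03). Slc36a3 of the proton-coupled family read 8.20, 8.24, 8.18 and 8.26 in spermine oxidase muscles, against 8.27, 8.26, 8.25 and 8.24 in control muscles (difference -0.04 ± 0.02). Spermine oxidase replicates 2 and 4 lay within the control range. Slc7a15 read 8.24, 8.26, 8.26 and 8.24 in spermine oxidase muscles, against 8.24, 8.13, 8.22 and 8.24 in control muscles. Its difference of 0.05 ± 0.03 became 0.02 without control replicate 2, the lowest muscle, and was 0.0070 as the mean of the gene's probes. Slc6a20a, of the proline and imino acid carriers, read 8.19, 8.23, 8.18 and 8.20 in spermine oxidase muscles, against 8.22, 8.25, 8.20 and 8.26 in control muscles (difference -0.03 ± 0.02). These 4 members had limma adjusted p-values of 0.582 to 0.615. The other 35 members had means of 8.21 to 8.84 and differences of -0.05 to 0.05, 22 above 0 and 13 below, and their smallest adjusted p was 0.632.

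By family, the Slc7 members leaned upward, with 12 of 15 above 0 and a median difference of 0.026, while Slc1 had 2 of 7 above 0 (median -0.0072), Slc6 had 9 of 18 (median -0.0017) and Slc38 had 7 of 10 (median 0.014). Of the Slc36 members 1 of 3 was above 0, and both Slc43 members and the single Slc3 member were, by 0.03 or less. Most of these signs belong to floor signals, since only 3 of 15 Slc7 members and 3 of 18 Slc6 members lay above the 60th percentile line, beside 6 of 10 Slc38 members. More than 1 probe was present for 16 members, and for 8 of these the probes disagreed in sign. For the 14 members above the line, 9 were higher and 5 lower, and the 95% interval of the difference included 0 for 13. On the deposited scale their intervals reached from -0.38 to 0.37.

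**Figure D4:**
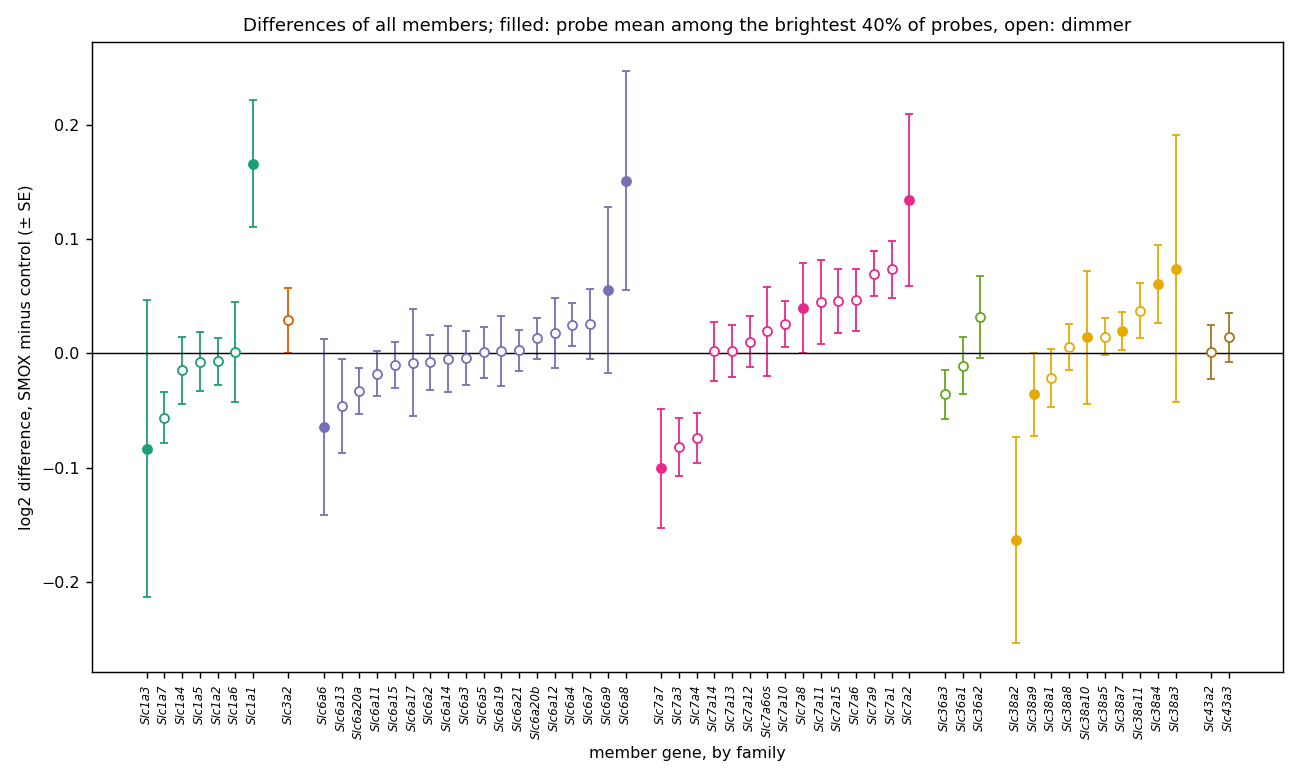
Log2 difference, spermine oxidase (SMOX) minus control, with its limma standard error for each of the 56 members, ordered by family (colour) and by size within the family. Filled points are the 14 members whose brightest probe lay among the brightest 40% of probes and open points the other 42, and 13 of the 14 filled members have a 95% interval that includes 0.

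Muscles of equal number were also compared with each other. Of the members, 8 were higher in the spermine oxidase muscle of all 4 numbers (14.3%, background 11.3%) and 5 were lower in all 4 (8.93%, background 11.1%). Slc6a8 was higher by 0.17, 0.02, 0.19 and 0.22 and Slc38a2 lower by -0.20, -0.07, -0.21 and -0.17 in numbers 1 to 4. In both genes number 2 differed least. When limma was given the replicate number as a block, 0 of 56 members passed an adjusted p of 0.05 (background 1.60%). At an unadjusted p under 0.05 that fit had 3 members higher (background 7.89%) and 3 lower (background 7.96%). The smallest adjusted p with the block were 0.0904 for Slc38a2, 0.136 for Slc7a4 and 0.154 for Slc6a8. The labels do not tie equal numbers to 1 mouse. Muscles numbered 1, 3 and 4 deviated together, and those numbered 2 did not.

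Sequences near the gene starts were searched for the element through which the transcription factor ATF4 and its C/EBP partners act on amino acid genes when amino acids run short. The letters searched were TGATGNAA on both strands, in windows from 250 bases before to 50 after each RefSeq start (build GRCm38.p6), with no other motif searched. Windows were at hand for 41 of the 56 members, not for Slc6a6 or Slc6a8. The letters were present for 4 of the 41 members (9.76%), beside 4.51% of the 27025 genes with a window. The stretches around the matches are shown because they mark the members that carry these letters next to a start, on the gene's strand from 5′ to 3′, with the matching letters in capitals.
Slc1a4, chr11:20332690-20332737, minus strand: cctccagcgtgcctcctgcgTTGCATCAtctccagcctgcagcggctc
Slc6a21, chr7:45282825-45282872, plus strand: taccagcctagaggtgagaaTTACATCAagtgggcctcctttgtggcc
Slc7a11, chr3:50443633-50443699, minus strand: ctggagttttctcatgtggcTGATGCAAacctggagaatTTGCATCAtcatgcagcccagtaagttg
Slc7a7, chr14:54417918-54417965, minus strand: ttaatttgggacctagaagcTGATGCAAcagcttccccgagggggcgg
Slc7a7, chr14:54418058-54418105, minus strand: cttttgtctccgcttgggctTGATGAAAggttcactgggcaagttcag
Slc7a11 has 2 matches that face each other. The differences of these 4 genes were -0.10 ± 0.05 for Slc7a7, 0.05 ± 0.04 for Slc7a11, -0.01 ± 0.03 for Slc1a4 and 0.0026 ± 0.02 for Slc6a21, and the last 3 lay at the floor. Their median was -0.0062, beside 0.0057 for the 37 members with a window and no match. A match describes the letters only, and no conclusion about the factor follows from it.

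Genes that use, sense or move amino acids by other routes were read beside the transporters, from lists written with earlier results of these data known. Of 27 measured genes of amino acid metabolism 0 passed the adjusted threshold with limma, with 4 higher and 4 lower at an unadjusted p under 0.05 (14.8% each, background 6.33% higher and 4.72% lower). With the replicate block 2 of the 27 passed (7.41%, background 1.60%), Gamt and Cdo1. Of the 27, 70.4% lay above the 60th percentile line, beside 44.7% of all genes. All genes above that line gave 11.5% higher and 8.53% lower at an unadjusted p under 0.05. With the block 3.56% of them passed, so the shares of this list are nearer to those of genes of like signal. Gamt, the last enzyme of creatine synthesis, read 10.93, 11.23, 11.05 and 11.43 in spermine oxidase muscles, against 11.79, 11.89, 11.73 and 12.04 in control muscles. All spermine oxidase muscles were lower, by -0.70 ± 0.11 (limma adjusted p = 0.179, and 0.0159 with the replicate block), beside the creatine transporter Slc6a8 at 0.15 ± 0.10. The first enzyme of that pathway, Gatm, lay at the floor (8.24). Cdo1, which oxidises cysteine toward taurine, differed by 0.18 ± 0.08 (limma adjusted p = 0.470, and 0.0372 with the block), with overlap between the groups. The serine synthesis enzyme Psat1 (-0.44 ± 0.10) and the aminotransferase Got1 (0.39 ± 0.10) came next to Gamt by p in the fit without the block, without passing. Asns, which makes asparagine, read 9.15, 9.74, 9.20 and 9.60 in spermine oxidase muscles, against 10.04, 9.91, 9.89 and 10.37 in control muscles. All its spermine oxidase muscles were lower, by -0.63 ± 0.16 (limma adjusted p = 0.254). Most markers of satellite cells and regenerating fibres differed in the same direction as Gamt, Psat1 and Asns. That is opposite to the 4 enzymes of the list that were higher at an unadjusted p under 0.05. These were Got1, Bckdk (0.37 ± 0.13), Gpt2 (0.35 ± 0.10) and Ppm1k (0.19 ± 0.06). Of 6 such markers measured, 5 had a lower mean in spermine oxidase muscles. Together the 6 averaged 9.39 to 9.99 in spermine oxidase muscles and 9.92 to 10.23 in control muscles. The perinatal myosin Myh8 (-1.28 ± 0.38) and the adhesion molecule Ncam1 (-0.63 ± 0.16) had the most negative differences, and Pax7 and Myf5 lay at the floor. None passed with limma, and 3 did with the replicate block, Ncam1 (adjusted p = 0.0409), Myod1 (0.0430) and Myog (0.0242). Other marker lists went the other way, with 6 of 6 higher for endothelium, 5 of 5 for adipocytes and 2 of 2 for red cells. Of the 5 adipocyte markers 4 lay below the 60th percentile line. Muscle fibre had 4 of 8 higher, fibroblast and tendon 3 of 7, nerve and Schwann cell 1 of 2, and T and B cell 1 of 3. The part of any of these cell types in the results for the enzymes was not tested. Of 29 genes through which mTORC1 senses amino acids, 3 were higher (10.3%) and 1 lower (3.45%) at an unadjusted p under 0.05, and none passed the adjusted threshold. Of the 29, 75.9% lay above the 60th percentile line, where all genes gave 11.5% higher and 8.53% lower. The lysosomal anchor subunit Lamtor2 (0.20 ± 0.06), the GATOR1 subunit Depdc5 (-0.07 ± 0.02) and the GATOR2 subunit Mios (0.15 ± 0.05) had the smallest p. Of 14 other amino acid and peptide transporters and partners, 0 had an unadjusted p under 0.05. The smallest p belonged to Ctns, the lysosomal cystine exporter (-0.15 ± 0.07), Slc15a3, a lysosomal peptide transporter (-0.40 ± 0.23), and its relative Slc15a4 (-0.07 ± 0.05).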

How the data were processed

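Total RNA of 8 tibialis anterior muscles was amplified, labelled with biotin and hybridised to Illumina bead arrays, per the labels' protocols. The authors deposited log2 values for 25697 probes. The log2 scale was read from the values (8.10 to 15.29), whose distributions differ between arrays by at most 0.155 at any rank. Whether and how they were normalized between arrays before deposit, and how background was treated, is not stated in the labels. For arrays, their number limits the precision.

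GEO's platform annotation named 23978 probes with 1 gene, 0 with several and 1719 with none, and the brightest probe by 8-array mean stood for each of 16593 genes. Samples were grouped by title. The model was fitted over all genes (R 4.3.3, limma 3.58.1, functions lmFit and eBayes, two-sided) and p-values were adjusted by Benjamini-Hochberg over all genes. Every p-value and standard error given for a gene comes from limma unless an exact test is named. The fit was tested on simulated data with independent errors, where changes larger than that of any member were added to genes brighter than the median. That test does not speak to small differences, to genes near the floor or to muscles that deviate together. Plots used matplotlib 3.10.9 in Python 3.11.15. Equal replicate numbers were checked for pairing: deviations from the group means correlated at 0.600 to 0.668 for numbers 1, 3 and 4 and at -0.142 for number 2. Between unequal numbers the highest correlation was 0.372. The labels do not say that equal numbers mark 1 mouse, so the block was an alternative and not part of the main comparison.

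Values per muscle are given for the 14 members with the smallest p and the 8 with the brightest probe, 21 in all. Further members were chosen by role. From each list up to 3 genes with the smallest p are named. The macrophage and satellite cell markers, Gatm, Cdo1, Asns, Bckdk, Gpt2 and Ppm1k were chosen after seeing their values. The other marker lists are given by counts. The members and lists were chosen with earlier results of these data known. Alternatives were the replicate block, quantile and cyclic loess normalization, leaving out the dimmest 40% or 60% of probes, averaging the probes of each gene, fitting each probe by itself, an intensity trend with a robust prior, the floor subtracted with an offset of 16, an adjusted p of 0.1 and leaving out each muscle. Leaving out spermine oxidase replicate 1 and control replicate 4 together was an alternative chosen after seeing the data.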

Additional observations from a re-analysis of the deposited data

Results flagged for a closer look

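In 6 of 112 groups of 4 muscles, 1 muscle lay far from the other 3 by Dixon's ratio, where chance flags about 1 in 20 groups (5%). Slc1a1 read 8.34 in control replicate 4, where the nearest control muscle read 8.48. Slc7a2 read 8.95 in spermine oxidase replicate 1, where the nearest read 8.84. Slc1a3 read 9.16 in spermine oxidase replicate 4, where the nearest read 8.84. The other flags were at the floor: Slc38a5 read 8.26 in spermine oxidase replicate 2, and Slc43a3 read 8.32 and Slc6a5 read 8.26 in control replicate 2.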

How the results depend on the processing

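No member passed an adjusted p of 0.05 under any of the 19 alternatives run, and the lowest adjusted p of a named member was 0.0904, for Slc38a2 with the replicate block. In the fit of each probe by itself, the named members Slc38a2, Slc7a8, Slc7a9 and Slc7a15 each had a probe opposite in sign to their brightest. That fit is not counted in what follows. Of the 261 recomputed differences of the 21 named members that another setting altered, 256 kept their sign. The exceptions among these were Slc1a3, Slc38a3 and Slc6a6 when control replicate 4, spermine oxidase replicate 1 or both were left out. Without both, a choice made after seeing the data, the groups did not overlap for 6 members higher and 3 lower. Leaving out 1 muscle gave 2 to 5 members higher and 2 to 3 lower at an unadjusted p under 0.05, 1 to 5 higher and 1 to 3 lower without overlap, 0 past the adjusted threshold, and a median difference of 0.0011 to 0.0113. Counts higher without overlap were 5 without control replicate 4, 3 without control replicate 1, and 4 and 3 without spermine oxidase replicates 2 and 4. Counts lower were 3 without control replicate 3, 3 without spermine oxidase replicate 1, and 2 without spermine oxidase replicate 2 or 3. Overlap can only become rarer with fewer muscles. For settings with muscles left out, the dimmest 40% left out, probes averaged or every probe, all-gene shares without overlap were not computed. Counts of members without overlap in those settings therefore cannot be set against the array. Of all 16593 genes, 1361 to 2177 had an unadjusted p under 0.05 in either direction when 1 muscle was left out. Without spermine oxidase replicate 2, 5 members were higher at an unadjusted p under 0.05. Without the dimmest 40% of probes 33 members were left, with 0 higher without overlap and a median of 0.0139. Without the dimmest 60%, 14 were left, with 1 higher and 0 lower at an unadjusted p under 0.05, 0 without overlap in each direction and a median of 0.0295. Of all genes above that line, 11.5% were higher and 8.53% lower at an unadjusted p under 0.05, and 5.85% higher and 3.71% lower without overlap. In both, fewer genes were tested. The mean of a gene's probes gave 2 higher without overlap. Over every probe, 5 of 80 member probes were higher at an unadjusted p under 0.05, and 2 higher and 2 lower did not overlap. With the floor subtracted the median was 0.0200, and 14 of the 16 named values that moved by more than the spread between muscles did so there. That spread was taken on the deposited scale, while subtracting the floor stretches the scale for dim probes. For those 14 values the comparison cannot tell a shift from the change of scale. The causes of these shifts were not tested. Whether equal replicate numbers mark 1 mouse is not stated in the labels. As a block the replicate numbers left 0 members past the threshold where all genes had 266, beside 0 without the block. Signals near the floor limit what can be seen for 42 of the 56 members.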
